A study of Arabidopsis thaliana with 12 samples.

Results

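The long introns described here are 616 intron segments of Arabidopsis thaliana, each over 250 bp, that the authors listed as differentially retained in at least 1 of 4 comparisons of genotype or light. They are all the bins (segments of a gene between splice sites) that the authors' splicing tables marked as introns and gave a length over 250 bp, out of 2110 intron bins and 2549 bins of every kind. The groups were sfps-2 seedlings given red light, sfps-2 seedlings kept in the dark, wild-type (WT) seedlings given red light and WT seedlings kept in the dark, with 3 libraries each. All were whole Col-0 seedlings, 4 days old and grown in the dark on MS medium without sucrose, and the last step was 3 h of darkness or of continuous red light at 7 µmol m-2 s-1. The sfps-2 line is a knockout of SFPS, which encodes a splicing factor of phytochrome signalling. Libraries were made from total RNA after removal of ribosomal RNA, so unspliced transcripts without a poly(A) tail could be read as well. The labels do not say whether the 3 libraries of a group came from separately grown seedlings, so the spread given here is that between libraries and may be technical.

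A nuclear intron is removed when the spliceosome recognises its 5′ splice site, its branch point and its 3′ splice site and joins the flanking exons. In plants, intron retention is the most common form of alternative splicing. A transcript that keeps an intron usually meets a stop codon inside it, and it may stay in the nucleus, be degraded by nonsense-mediated decay, or be spliced later. SFPS binds components of the U2 part of the spliceosome, which acts near the branch point and the 3′ splice site, and light signalled through phytochromes changes the splicing of many plant genes.

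Retention was computed for each library from junction reads, as the reads crossing either intron boundary divided by those reads plus 2 times the spliced reads. It is given as a percentage, and differences between groups are in percentage points. The introns were chosen on these same comparisons, so the differences are described with their standard errors (SE) and carry no test of their own. Where a false discovery rate (FDR) is quoted, it comes from the authors' deposited table and refers to the read count of the bin, another measure than the junction share.

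The 3′ splice sites of the introns with the largest genotype differences are shown first, because splice site features are compared further on. They are all nuclear introns among the 5 largest falls and 5 largest rises of each genotype comparison with at least 20 weighted junction reads (boundary reads plus 2 times the spliced reads) in every library. The first 6 belong to introns that were less retained in sfps-2 and the next 8 to introns that were more retained. Each line gives the last 15 bases of the intron and the first 2 bases of the exon, with the terminal AG of the intron in capitals, 5′ to 3′ from RefSeq on TAIR10.1.
RIK, chr3:11291880-11291896, plus strand: ctttcgtacatgcAGga
AT5G22608, chr5:7513603-7513619, plus strand: tgtattgtggactAGaa
alpha-ADR, chr5:7579515-7579531, minus strand: ctttttttgcgccAGcc
AT1G56612, chr1:21214788-21214804, minus strand: tgaccttgttgtaAGtc
XXT4, chr1:6434895-6434911, plus strand: aatgatttttaaaAGag
AT2G30695, chr2:13079657-13079673, minus strand: tacttttatttgcAGat
AT4G35140, chr4:16724105-16724121, minus strand: atttgtgtgttccAGcg
AT2G44090, chr2:18239996-18240012, minus strand: tctcggcgtttccAGgt
AT2G17320, chr2:7535411-7535427, minus strand: ctgtttcatttgcAGga
AT1G06560, chr1:2009246-2009262, plus strand: gaaatgttattgtAGat
OTS2, chr1:3488314-3488330, plus strand: tttaccttgttttAGca
TPS12, chr4:7734972-7734988, minus strand: tctttctcgtgtaAGgt
BIM3, chr5:15560542-15560558, plus strand: tttgattgtgaacAGgg
CCP1, chr2:14560651-14560667, plus strand: ctatgtatttattAGga
The base before the AG was C in 3, A in 2 and T in 1 of the 6 less retained sites, and C in 4, A in 1 and T in 3 of the 8 more retained sites. One intron with a large difference, in AT1G06560, starts with GC in place of GT. Its 5′ splice site, with 3 exon bases first and the first 2 intron bases in capitals, is shown for that reason.
AT1G06560, chr1:2008868-2008876, plus strand: cagGCaaga

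Whole introns are shown for RIK, which had the largest fall in sfps-2, and for the GTP-binding protein gene AT5G08650, which had one of the smallest p-values when the light response was compared between genotypes. The capitals at the ends are the intron's first and last 2 bases, and the capitals within are the first stop codon met when the upstream reading frame is continued into the intron.
RIK intron 7 of 11, chr3:11291635-11291894, plus strand, 260 bp: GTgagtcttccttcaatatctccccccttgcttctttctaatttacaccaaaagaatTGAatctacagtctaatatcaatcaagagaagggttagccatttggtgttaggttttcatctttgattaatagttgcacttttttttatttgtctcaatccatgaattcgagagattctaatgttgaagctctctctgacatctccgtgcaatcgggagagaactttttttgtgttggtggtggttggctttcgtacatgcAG
AT5G08650 intron 19 of 21, chr5:2807071-2807348, minus strand, 278 bp: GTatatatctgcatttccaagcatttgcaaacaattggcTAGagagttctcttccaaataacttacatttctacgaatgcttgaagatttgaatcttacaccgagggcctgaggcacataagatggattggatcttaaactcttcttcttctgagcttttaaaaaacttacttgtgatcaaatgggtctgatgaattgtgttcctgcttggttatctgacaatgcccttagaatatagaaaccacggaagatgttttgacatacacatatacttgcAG
In the continued reading frame this stop is codon 20 in the RIK intron and codon 14 in the AT5G08650 intron.

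The 616 introns lie in 585 host genes and are 251 to 4672 bp long, with a median of 407 bp. Of them, 411 were listed in 1 comparison, 188 in 2, 14 in 3 and 3 in all 4. RefSeq annotates 607 (98.5%) as introns with the same ends, 606 of them in nuclear genes and 1 in the chloroplast genome. Another gene overlaps 54 of the introns and a whole gene lies inside 10, and whether the counting used strand is not given in the sources used here. Near the length limit, the shortest introns were AT5G25270:I014 of 251 bp, at 17.6% in dark sfps-2 against 11.5% in dark WT, AT2G47410:I017 and GPX7:I005, both of 252 bp. Just outside it lay AT1G59124:I001, AT1G59218:I001 and AT3G26510:I005, all of 250 bp, the last at 62.4% in dark sfps-2 against 49.5% in dark WT.

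Over the 431 nuclear intron bins with values in all 12 libraries, each library held between 205956 and 283737 junction reads. Total reads per library are unknown. Dark-grown markers (PIL1, ATHB2, XTH15, PORA) were lower and light-induced markers (LHCB1.1, RBCS1B, ELIP2, CHS) higher after red light in both genotypes in the authors' deposited tables. SFPS itself was lower in sfps-2 in the authors' deposited tables, by log2 changes of -2.14 in the dark (1.83 FPKM in sfps-2, 8.04 FPKM in WT) and -2.04 after red light (1.93 and 7.90 FPKM). The intron of SFPS, AT1G30480:I001, had no spliced read in any sfps-2 library (100% in all 6) against 3.64% to 11.3% in the WT libraries. Over all 12 libraries, its boundary reads summed to 91 at the lower-coordinate end and 34 at the upper one, beside 622 spliced reads. The sfps-2 values rest on a part of these boundary reads alone, and so on few reads per library. In bulk samples, a change in how many cells of a type are present and a change in RNA per cell cannot be told apart.

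Some libraries stood apart at single introns. In the intron of the chloroplast gene petB (cytochrome b6, ATCG00720:I001), no spliced read was listed in sfps-2 dark replicate 1 and sfps-2 red light replicate 3, although the first had 19118 and 22069 boundary reads and the second 16994 and 18573, and the other sfps-2 libraries had 36624 to 41259 spliced reads. Retention of petB was 45.4%, 41.1% and 100% in sfps-2 red light and 36.6%, 33.8% and 35.2% in WT red light, and it was 100%, 41.1% and 39.5% in sfps-2 dark and 33.4%, 32.4% and 35.7% in WT dark. The difference of 26.4 points in the dark was 6.47 points without the library at 0 spliced reads, and the difference of 27.0 points after red light was 8.06 points without it. The vacuolar invertase gene ATBETAFRUCT4 had the same feature in sfps-2 dark replicate 1 and in WT dark replicates 1 and 2. In all, 3 long introns had a library at 0 spliced reads where another library of its group had at least 20, petB, ATBETAFRUCT4:I001 and AT5G16990:I003, among 8 of the 2110 intron bins. Why these libraries list no spliced reads was not tested.

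Loss of SFPS went with more retention at most of the long introns listed for genotype, in the dark and after red light alike. In the dark, 204 of 276 listed long introns were more retained in sfps-2, 71 were less retained and 1 had no value. That is 74.2% of those with a value, beside 64.2% of all 743 intron bins listed in that comparison, whatever their length. After red light, 211 of 283 were more retained in sfps-2 and 72 less (74.6%), beside 70.3% of all 788 listed. The shares in shorter bins were 58.7% for those over 100 and up to 250 bp and 58.7% for those of 100 bp or less in the dark, and 68.9% and 67.6% after red light. No test of the difference between lengths was made.

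Median retention over the long introns listed in the dark was 16.3% in sfps-2 against 10.6% in WT, and over those listed after red light it was 15.1% in sfps-2 against 10.2% in WT. The library medians were 15.8% to 16.5% in dark sfps-2 against 10.3% to 10.9% in dark WT, and 14.9% to 15.3% in red light sfps-2 against 9.87% to 10.6% in red light WT, so the groups did not overlap in this measure. The more retained introns differed by a median of 7.30 points in the dark and 6.41 points after light, and the less retained ones by -8.90 and -7.73 points. All 3 sfps-2 values lay above all 3 WT values for 170 introns and below them for 55 in the dark (81.5%, beside 85.9% of all listed intron bins), and the counts were 173 and 62 after red light (83.0%, beside 83.8%).

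**Figure D1:**
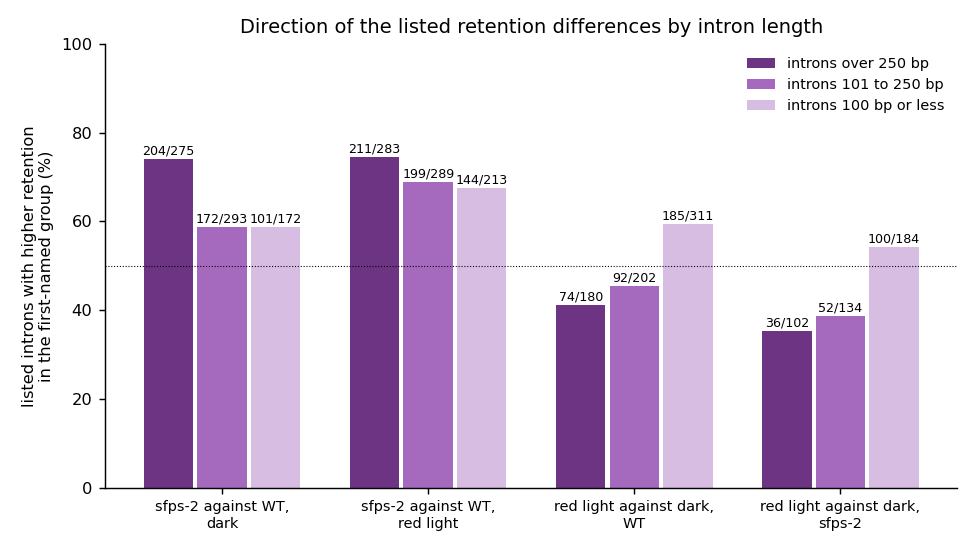
Percentage of listed intron bins whose mean retention was higher in the first-named group (vertical axis), for the 4 comparisons (horizontal axis) and 3 length classes, with long introns over 250 bp beside the shorter classes. Long introns stand at 74.2% and 74.6% in the genotype comparisons and at 41.1% and 35.3% in the light comparisons.

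The genotype lists in the dark and after red light were shared in part. Of the long introns, 144 were listed for genotype in both conditions, which is 52.2% of the dark list and 50.9% of the red light list. Of these, 118 were more retained in sfps-2 in both, 26 less retained in both and 0 in opposite directions. The comparisons share no library, but all 144 were chosen for a difference in each. The same count was not made over all intron bins listed in both conditions. The 118 differed by a median of 8.12 points in the dark and 6.84 points after light, and the 26 by -17.5 and -14.1 points.

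**Figure D2:**
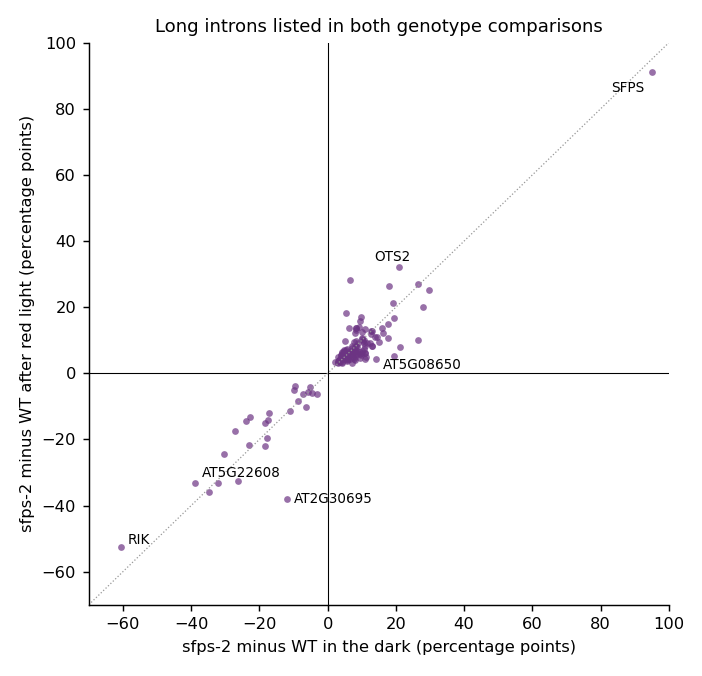
Difference in retention between sfps-2 and WT after red light (vertical axis, percentage points) against the same difference in the dark (horizontal axis) for the 144 long introns listed in both genotype comparisons, 1 point per intron. All lie in the upper right (118) or lower left (26) quadrant.

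Several of the largest falls in sfps-2 were in introns that WT seedlings mostly kept. RIK encodes a KH-domain RNA-binding protein that interacts with the leaf regulator ROUGH SHEATH2 in maize. Its intron 7 was retained at 23.4%, 22.8% and 27.8% in sfps-2 red light against 73.0%, 75.2% and 83.8% in WT red light, and at 18.8%, 32.4% and 24.4% in sfps-2 dark against 85.6%, 88.4% and 83.1% in WT dark. Every sfps-2 library lay far below every WT library, with differences of -60.5 points in the dark (SE 4.23) and -52.6 points after light (SE 3.67). The authors' deposited table gives FDR 8.03e-19 for this bin in the dark and 1.59e-35 after light, and RIK expression was not called (log2 change -0.12 and -0.01). A second RIK intron, I010 of 1204 bp, was listed after red light only, at 19.9%, 13.6% and 15.9% in sfps-2 against 18.0%, 22.6% and 25.2% in WT, and these groups overlapped.

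AT5G22608, which encodes an uncharacterized protein, had a 298 bp intron retained at 58.1%, 70.8% and 51.6% in sfps-2 red light and 91.2%, 92.6% and 96.4% in WT red light. In the dark the values were 51.6%, 56.4% and 51.7% in sfps-2 and 91.1%, 92.4% and 92.8% in WT. The groups did not overlap in either condition, and the differences were -38.9 points in the dark (SE 1.66) and -33.2 points after light (SE 5.86). The last intron of alpha-ADR, in the 3′ UTR of the gene for alpha-adaptin of the clathrin adaptor AP-2, was at 46.6%, 50.2% and 43.0% in sfps-2 red light against 88.9%, 84.8% and 73.4% in WT red light. In the dark it was at 44.5%, 47.4% and 43.2% in sfps-2 against 87.5%, 66.1% and 85.9% in WT. The sfps-2 libraries lay close together and below all WT libraries, among which WT dark replicate 2 was the lowest. AT2G30695:I002, in a gene annotated as a trigger factor, was at 13.04%, 20% and 12.5% in sfps-2 red light against 50%, 53.5% and 56.2% in WT red light. In the dark its groups overlapped, at 20%, 58.3% and 16.7% in sfps-2 against 41.2%, 55.9% and 33.3% in WT, with fewer than 20 weighted junction reads in at least 1 library.

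Introns outside coding sequence were also among the large falls. AT1G56612:I002, in a natural antisense transcript, averaged 31.6% ± 10.5 in sfps-2 red light and 64.8% ± 4.50 in WT red light, and 33.5% ± 6.32 in sfps-2 dark and 65.8% ± 2.01 in WT dark (SD, n = 3 each). XXT4:I003, in the 5′ UTR of a xyloglucan xylosyltransferase gene, averaged 22.9% ± 9.57 in sfps-2 red light and 47.1% ± 11.2 in WT red light, and 18.9% ± 4.66 in sfps-2 dark and 49.4% ± 2.50 in WT dark. SR34B:I012 lies in the 3′ UTR of a gene for a serine/arginine-rich splicing factor and averaged 52.5% ± 9.39 in sfps-2 red light and 85.1% ± 3.56 in WT red light, and 51.9% ± 8.16 in sfps-2 dark and 78.3% ± 3.31 in WT dark. No library of sfps-2 reached the lowest WT library of the same condition in any of these introns.

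Apart from the SFPS intron, which held no spliced read in sfps-2, the introns with large rises described here had both spliced and boundary reads in sfps-2. AT2G44090, an ankyrin repeat gene, had its first intron retained at 44.9%, 50.5% and 40.9% in sfps-2 red light against 21.6%, 18.0% and 20.8% in WT red light. In the dark the values were 39.8%, 57.9% and 54.7% in sfps-2 against 25.9%, 18.2% and 19.3% in WT. All sfps-2 libraries were above all WT libraries, by 29.7 points in the dark (SE 6.08) and 25.3 points after light (SE 3.00). AT4G35140, a WD40 repeat gene, had a 797 bp last intron at 68.1%, 58.4% and 60% in sfps-2 dark against 33.3%, 26.3% and 31.8% in WT dark, and it was not listed for genotype after red light. Boundary reads at that intron summed to 286 at the lower-coordinate end and 33 at the upper one. Such unequal ends, over 3-fold apart, were found in 87 of the 616 introns, among them those of OTS2 (111 and 638), alpha-ADR (283 and 1738), AT2G17320 (526 and 2154), XXT4 (331 and 104), ELF3:I002 (1566 and 514), VLN3 (2054 and 619), E13L3 (14 and 193), HCF208 (885 and 98), AT2G34080 (105 and 17) and AT1G58602:I002 (1147 and 207). Also among the 87 were PRR7:I004 (653 and 172), AT2G31730:I005 (1041 and 187) and AT1G52510:I001 (46 and 172). So were AT2G39260:I009 (556 and 156) and ADR1-L1:I006 (163 and 1018). Retention at all these introns rests mainly on 1 end. The part of this in the differences was not tested beyond the values for each boundary alone.

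OTS2 encodes a SUMO protease, an enzyme that removes SUMO from proteins. Its first intron was at 71.7%, 73.0% and 78.5% in sfps-2 red light and 63.0%, 34.9% and 29.1% in WT red light, and at 75.4%, 73.6% and 74.5% in sfps-2 dark and 57.4%, 58.3% and 45.5% in WT dark. The groups did not overlap, and WT red light replicate 1 was the highest WT library. OTS2 expression was called higher in dark sfps-2 (log2 change 0.71, q 0.00116) in the authors' deposited table. CCP1:I001, in a gene annotated as a P-loop nucleoside triphosphate hydrolase, averaged 44.2% ± 4.78 in sfps-2 red light and 17.7% ± 0.769 in WT red light, and 33.9% ± 8.26 in sfps-2 dark and 15.8% ± 1.14 in WT dark. BIM3 encodes a bHLH partner of the brassinosteroid factor BES1, and its intron 4 was at 33.3%, 34.2% and 65.5% in sfps-2 red light against 11.9%, 26.1% and 10.1% in WT red light. Replicate 3 of sfps-2 red light held the highest of these values. TPS12:I006, in a terpene synthase gene, was at 72.9%, 49.4% and 71.4% in sfps-2 red light against 50%, 18.9% and 39.4% in WT red light, and these ranges overlapped.

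Some introns were listed for both genotype and light. AT2G17320 is annotated as a pantothenate kinase gene, and its first intron was listed in all 4 comparisons. Retention was 46.0%, 39.0% and 45.7% in sfps-2 red light, 59.6%, 55.6% and 57.2% in sfps-2 dark, 22.4%, 25.9% and 22.1% in WT red light, and 26.5%, 32.8% and 29.7% in WT dark. The 4 groups did not overlap, with sfps-2 above WT and red light below dark. Expression of AT2G17320 was called higher in dark sfps-2 (log2 change 0.74, q 0.00116) in the authors' deposited table.

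MIR156c, the primary transcript of a microRNA that targets SPL genes of phase change, gave the second intron listed in all 4 comparisons. Its 980 bp intron I002 averaged 15.7% ± 2.96 in sfps-2 red light, 23.7% ± 2.37 in sfps-2 dark, 11.4% ± 0.550 in WT red light and 17.7% ± 0.592 in WT dark (SD, n = 3 each), and its 718 bp intron I001 averaged 12.7%, 19.6%, 9.16% and 14.5% in the same groups. The third intron listed in all 4 was AT1G06560:I003, in a gene of the NOL1/NOP2/sun family of RNA methyltransferases, the intron with the GC start shown above. Its values were 50%, 19.4% and 30.2% in sfps-2 red light, 36.4%, 39.3% and 29.7% in sfps-2 dark, 20.7%, 14.3% and 34.5% in WT red light, and 6.67%, 5.08% and 14.3% in WT dark. Sfps-2 and WT did not overlap in the dark but did after red light.

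**Figure D3:**
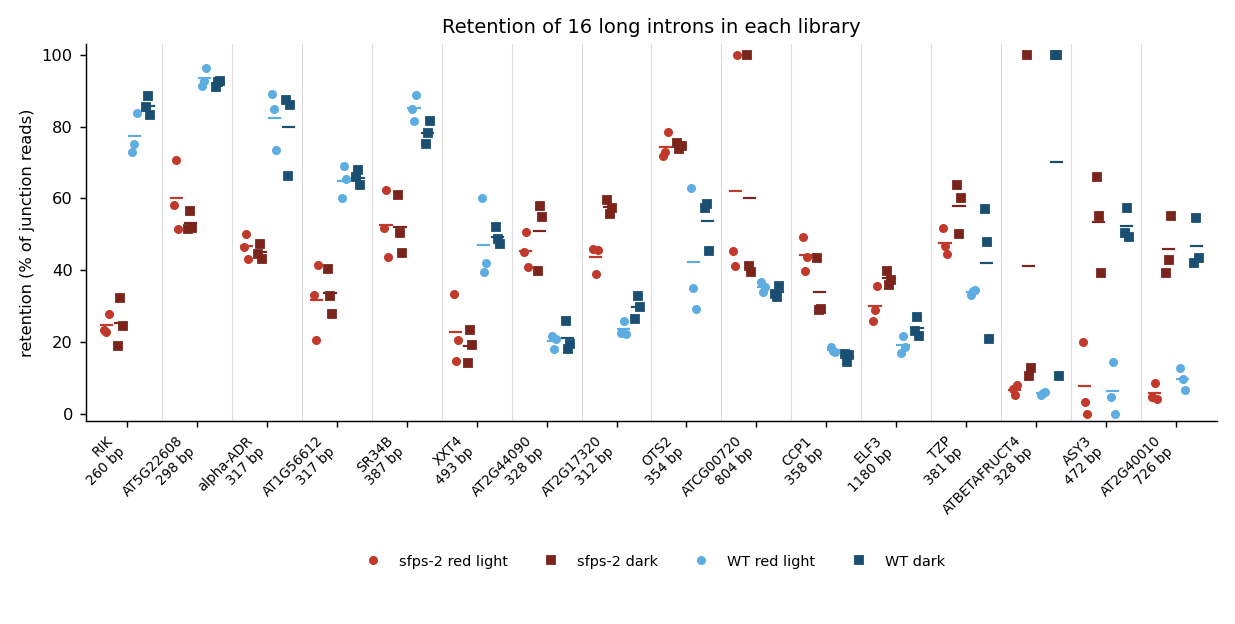
Retention of 16 long introns (horizontal axis, with length) in each library (points) and as group means (bars), as a percentage of junction reads (vertical axis), with the 4 groups side by side. RIK averages 24.7% (red light) and 25.2% (dark) in sfps-2 against 77.3% and 85.7% in WT, and ASY3 averages 7.78% in sfps-2 and 6.35% in WT after red light.

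Of the 17 introns listed in 3 or 4 comparisons, those more retained in sfps-2 and less retained after light included the following hosts. ELF3 is a core protein of the evening complex of the circadian clock. Its 1180 bp intron 2 was at 25.9%, 28.8% and 35.7% in sfps-2 red light, 39.7%, 36% and 37.4% in sfps-2 dark, 16.9%, 21.6% and 18.7% in WT red light, and 23.0%, 27.0% and 21.6% in WT dark. The genotype groups did not overlap in either condition, and the light groups did not overlap in either genotype. VLN3, an actin-bundling villin, had intron 20 at 15.1% ± 1.12 in sfps-2 red light, 20.3% ± 1.42 in sfps-2 dark, 5.93% ± 0.398 in WT red light and 8.75% ± 0.428 in WT dark. RCD1, a regulator of oxidative stress responses, had intron 4 at 34.8% ± 0.809, 40.8% ± 2.56, 25.2% ± 1.49 and 31.2% ± 3.11 in these 4 groups. The first intron of ECT8, a reader of N6-methyladenosine in RNA, averaged 19.4% in sfps-2 red light, 26.8% in sfps-2 dark, 15.1% in WT red light and 19.2% in WT dark.

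Of the 17 introns, 10 had all sfps-2 dark libraries above every other library, those of AT2G17320, ELF3, VLN3, RCD1 and ECT8 and both MIR156c introns among them. All 17 were chosen for differences in both genotype and light, so this count follows in part from that choice. The same count was not made over the other introns with values in every library. The other 3 of the 10 are given next. The calcium-dependent protein kinase gene CPK13 had intron 6 at 6.03%, 5.50% and 5.37% in sfps-2 red light, 10.7%, 10.5% and 10.9% in sfps-2 dark, and 1.90% to 4.06% in the WT libraries. E13L3 is annotated as a glucan beta-glucosidase-like protein gene, and its first intron was at 4.69%, 7.36% and 8.79% in sfps-2 red light, 22.7%, 20% and 25% in sfps-2 dark, and 0.826% to 4.8% in the WT libraries. AT5G08650 had intron 19 at 8.68%, 10.2% and 6.59% in sfps-2 red light, 15%, 18.9% and 20% in sfps-2 dark, and 2.65% to 4.85% in the WT libraries.

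FNR2 and TLP2 ran the other way, with less retention in sfps-2. FNR2 encodes a leaf ferredoxin-NADP+ oxidoreductase, the last enzyme of photosynthetic electron transport. Its first intron was at 17.5%, 21.9% and 16.8% in sfps-2 red light, 14.1%, 11.8% and 16.4% in sfps-2 dark, 27.9%, 26.2% and 27.3% in WT red light, and 21.0%, 16.7% and 22.6% in WT dark. The light groups did not overlap in either genotype, and the higher retention in light came with a rise of FNR2 expression (log2 change 1.95 in sfps-2 and 2.2 in WT, authors' q 0.000382 and 0.000292). TLP2:I001, in the 5′ UTR of a tubby-like protein gene, averaged 8.92% ± 0.989 in sfps-2 red light and 20.4% ± 3.17 in WT red light, and 6.39% ± 0.307 in sfps-2 dark and 17.3% ± 1.23 in WT dark.

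Red light went with less retention at the majority of the long introns listed for light. In sfps-2, 36 of 102 long introns were more retained after red light and 66 less (35.3% higher, beside 44.1% of all 426 intron bins listed). In WT, 74 of 180 were more retained and 106 less (41.1% higher, beside 50.2% of all 699 listed). Bins of 100 bp or less were more retained in 54.3% in sfps-2 and 59.5% in WT, and bins over 100 and up to 250 bp in 38.8% and 45.5%. The groups did not overlap for 21 higher and 51 lower introns in sfps-2 (70.6%, beside 79.6% of all listed) and for 46 and 79 in WT (69.4%, beside 80.8%).

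Of the long introns, 40 were listed for light in both genotypes, 39.2% of the sfps-2 list and 22.2% of the WT list. Of these, 13 were more retained after light in both and 25 less retained in both. The other 2, AT1G06560:I003 and ADR1-L1:I006 in a helper immune receptor gene, had opposite directions, and both had overlapping groups. In sfps-2 the light difference of AT1G06560:I003 was -1.91 points, and it was 4.99 points without sfps-2 red light replicate 2 and 0.165 points without sfps-2 dark replicate 2, so its direction rests on single libraries. Retention over the listed introns had a median of 9.73% after red light against 14.6% in the dark in sfps-2, and of 10.3% after red light against 12.9% in the dark in WT.

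ASY3, a protein of the meiotic chromosome axis, had the largest light difference in sfps-2 among introns listed for light in both genotypes, and in WT the largest apart from the ATBETAFRUCT4 intron described next. Its 472 bp intron 7 was at 20%, 3.33% and 0% in sfps-2 red light against 66.0%, 55.1% and 39.2% in sfps-2 dark, and at 4.76%, 14.3% and 0% in WT red light against 50.3%, 57.4% and 49.3% in WT dark. Dark and red light libraries did not overlap in either genotype, with differences of -45.7 points in sfps-2 (SE 9.93) and -46.0 points in WT (SE 4.91). ASY3 expression was low and not called, at 1.95 FPKM after light and 2.52 FPKM in the dark in sfps-2, and at 1.85 and 2.41 FPKM in WT. In AT2G40010, a gene annotated in the ribosomal protein L10 family, a 726 bp intron averaged 5.73% ± 2.39 after light and 45.8% ± 8.33 in the dark in sfps-2, and 9.67% ± 3.00 and 46.6% ± 6.90 in WT. Of its boundary reads, 358 were at one end and 11 at the other, and another gene overlaps it.

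ATBETAFRUCT4:I001 showed a larger difference than ASY3 in WT and a smaller one in sfps-2, and both depend on the libraries without spliced reads. Its retention was 6.94%, 5.16% and 7.98% in sfps-2 red light against 100%, 10.4% and 12.7% in sfps-2 dark, and 5.30%, 5.71% and 6.07% in WT red light against 100%, 100% and 10.4% in WT dark. The difference between light and dark was -34.3 points in sfps-2 and -64.4 points in WT with all libraries, and -4.84 and -4.69 points without the libraries at 0 spliced reads. The red light libraries lay below every dark library either way. The next intron, I002, was at 12%, 8.84% and 11.2% in sfps-2 red light against 41.2%, 14.3% and 15.9% in sfps-2 dark, and at 6.95%, 6.82% and 6.58% in WT red light against 35.3%, 41.1% and 12.2% in WT dark, with its high values in the same 3 libraries.

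Other introns fell after light in 1 genotype's list. In WT, SUF4, a zinc finger activator of the floral repressor FLC, had a 519 bp last intron at 43.1%, 37.3% and 48.1% after light against 66.8%, 64.7% and 68.1% in the dark. AT1G52510:I001, in the 3′ UTR of an alpha/beta-hydrolase gene, was at 7.5%, 9.71% and 7.96% after light against 33.3%, 22.4% and 46.2% in the dark, and its host rose in expression (log2 change 2.46, authors' q 0.000292). Neither overlapped between light and dark, and another gene overlaps each of these introns. In sfps-2, AT2G13440:I004, in a gene of the GidA family of tRNA-modifying enzymes, was at 24.7%, 29.3% and 23.2% after light against 47.8%, 40.9% and 55.3% in the dark. AT2G31730:I005, in the 5′ UTR of a bHLH gene, was at 22.7%, 41.5% and 30.8% after light against 60.1%, 51.6% and 61.0% in the dark.

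In WT, the largest rises after light lay in a pair of introns that other genes overlap. AT2G34080:I001, in a cysteine protease gene, was at 67.1%, 52.0% and 53.4% after light against 7.69%, 4.92% and 5.88% in the dark, and HCF208:I001, in a gene needed for the cytochrome b6f complex, at 73.9%, 81.4% and 83.9% against 53.5%, 63.2% and 44.3%. Light and dark did not overlap in either intron, and other genes are annotated over both. AT2G05310:I001, in an uncharacterized gene with no overlapping gene, was listed in both genotypes, at 24.3%, 26.4% and 27.4% after light against 18.5%, 17.4% and 13.4% in the dark in sfps-2, and at 21.5%, 21.6% and 21.4% against 13%, 12.7% and 17.2% in WT. In sfps-2, TBL13:I005, in a gene of the family that acetylates cell wall polysaccharides, was at 25.5%, 25% and 23.6% after light against 8.20%, 10.7% and 16.2% in the dark.

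Whether the light response of retention differed between genotypes was tested directly on the unspliced and spliced reads of 432 intron bins listed for all 12 libraries, 181 of them long. A bin has values in all 12 only where it was listed for genotype in both light conditions or for light in both genotypes. The 411 long introns listed once, and pairs such as dark genotype and sfps-2 light, could not enter, and the outcome says nothing about them. Such a choice favours bins with similar differences in both conditions or both genotypes, so it also shapes the counts given here. In edgeR's quasi-likelihood test with Benjamini-Hochberg adjustment over the 432, 0 passed (background 0%), and the smallest adjusted p was 0.309. At an unadjusted p under 0.05 there were 6 of 181 long introns (3.31%, beside 4.4% of all 432). DESeq2 and limma also passed 0, with 21 and 18 bins at an unadjusted p under 0.05. The intron of AT5G08650 had the second smallest p (difference of log2 odds -1.37, unadjusted p 0.00307, adjusted p 0.309 in edgeR), with light differences of -9.46 points in sfps-2 and 0.43 points in WT. AT5G26146:I001, a 1542 bp intron of an antisense transcript with another gene inside it, had the smallest (-0.85, unadjusted p 0.00177, adjusted p 0.309), with light differences of -3.16 points in sfps-2 and 0.67 points in WT. AT1G05805:I001, of a bHLH gene, had -0.88 (adjusted p 0.925) and averaged 28.8% after light and 40.0% in the dark in sfps-2, against 20.8% and 18.7% in WT.

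At the sequence level, long introns that were less retained in sfps-2 had lower median 3′ splice site scores than those that were more retained. Sites were scored as summed log2 odds over 17 bases, with base frequencies from all annotated introns. The median score was 8.60 for the introns more retained and 6.42 for those less retained in the dark, and 8.85 and 6.42 after red light, beside 8.31 over 19932 annotated introns of the same length class in genes tested for expression. Among introns listed in both conditions it was 9.11 for 116 more retained and 5.81 for 25 less retained. The median 5′ splice site score was 7.23 and 7.30 in the dark and 7.41 and 7.77 after light, beside 7.20. No test was made of these features, since the lists were formed by the same retention values.

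Over the whole lists, the last bases differed in the same way. C, the usual base before the terminal AG, stood there in 73.9% of introns more retained and 39.1% of those less retained in the dark, and in 67.3% and 43.7% after light, beside 65.5% of annotated introns over 250 bp. A stood there in 5.03% and 18.8% in the dark and in 3.85% and 23.9% after light, beside 7.30%. The first exon base was G in 53.8% and 29.0% in the dark and in 59.1% and 28.2% after light, beside 50.2%. The lists for red light against dark differed too. In WT, C stood before the AG in 49.3% of 71 introns more retained after light and 76.9% of 104 less retained, and A in 15.5% and 2.88%. In sfps-2, C stood there in 51.4% of 35 more retained and 65.6% of 64 less retained, and A in 5.71% and 4.69%. The median 3′ scores of these lists were 7.78 and 8.37 in WT and 8.75 and 9.66 in sfps-2. The printed sites show the range. Of the less retained introns, AT2G30695 scored 13.6, RIK 8.57, XXT4 5.43, alpha-ADR 5.33, AT5G22608 4.08 and AT1G56612 0.76. Of the more retained introns, AT2G17320 scored 11.7, BIM3 8.79, CCP1 8.66, AT1G06560 8.403, OTS2 7.86, AT4G35140 7.29, AT2G44090 6.77 and TPS12 5.99. The directions overlapped in these scores.

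**Figure D4:**
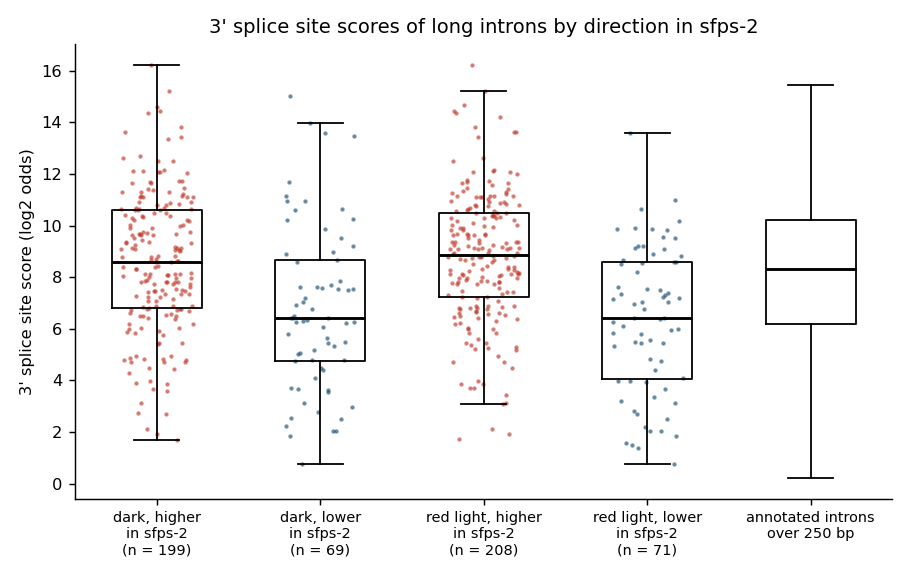
Scores of 3′ splice sites (vertical axis, summed log2 odds) of long introns by direction of the sfps-2 difference in the dark and after red light, beside annotated introns over 250 bp. Medians are 8.60 and 8.85 for more retained and 6.42 and 6.42 for less retained introns, and the distributions overlap widely.

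RefSeq also annotates some of the introns as retained in a transcript of the gene. It holds such a transcript for 12.6% of the more retained and 26.1% of the less retained introns in the dark, and for 13.9% and 23.9% after light, beside 10.2% of annotated introns over 250 bp. Of the 606 nuclear introns with matching ends, 474 lie in coding sequence, 94 in 5′ UTRs, 25 in 3′ UTRs and 13 in genes without a coding sequence. All 474 coding introns hold a stop codon in the continued reading frame, as do 99.5% of annotated coding introns of this length. First introns made up 40.3%, beside 43.5% of annotated introns over 250 bp, and median GC content was 33.3%, beside 33.1%. A start sequence like that of introns of the minor U12 spliceosome was found in 2 introns (0.330%, beside 0.386% of annotated introns over 250 bp). Only the first bases of the intron were used for this match.

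Several host genes held more than 1 long intron, and these did not always move together. Of 28 such hosts, 20 had at least 2 introns listed in the same comparison, 14 with 1 direction throughout and 6 with opposite directions in at least 1 comparison. ATX2 encodes a trithorax-like histone methyltransferase. Its intron 4 averaged 31.1% ± 1.37 in sfps-2 red light and 45.4% ± 5.55 in WT red light, and 27.2% ± 4.73 in sfps-2 dark and 51.0% ± 7.48 in WT dark. Its intron 10 averaged 14.7% ± 3.65 in sfps-2 red light and 6.53% ± 1.14 in WT red light, and 13.1% ± 2.58 in sfps-2 dark and 5.96% ± 1.25 in WT dark. Intron 4 was thus lower and intron 10 higher in sfps-2 within the same libraries.

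AT2G39260 encodes UPF2, a factor of nonsense-mediated decay. Its 764 bp intron I004 averaged 4.57% ± 1.90 in sfps-2 dark and 12% ± 1.18 in WT dark, and its 329 bp intron I009 averaged 23.7% ± 3.88 in sfps-2 dark and 7.56% ± 2.17 in WT dark. AT1G31870, a gene for a splicing factor of the RES complex, had its first intron at 4.98% in sfps-2 dark and 8.14% in WT dark, and its intron I004 at 15.6% in sfps-2 dark and 4.61% in WT dark. GTG1, a GPCR-type G protein gene, had 3 long introns, I007 at 3.54% in sfps-2 dark and 9.01% in WT dark, I009 at 11.3% and 3.87%, and I010 at 13.1% and 4.66%. In AT1G58602, a disease resistance gene of the NB-ARC class, the 4420 bp intron I002 was at 44.5%, 41.7% and 54.3% in sfps-2 red light against 79.7%, 79.5% and 75.3% in WT red light, while I008 averaged 93.1% and 79.9%. The remaining host with opposite directions was AT2G47410, a WD40 domain gene.

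The longest of the introns had no annotated RefSeq intron with the same ends. AT4G03935:I002 of 4672 bp, in a transcript of unknown function, was at 10.1% after red light and 4.92% in the dark in WT. IMPL2:I001 of 4453 bp, in a gene of the inositol monophosphatase family with a role in histidine synthesis, averaged 16.9% in sfps-2 red light and 10.7% in WT red light, with overlapping groups. Another whole gene lies inside each.

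Host genes were grouped by keywords in their RefSeq product names. Kinases and phosphatases, 46 hosts, had 21 introns more retained and 2 less retained in sfps-2 in the dark, and 29 and 1 after red light. Transport and membrane traffic, 25 hosts, had 13 and 0 in the dark and 13 and 4 after light. Transcription and chromatin, 61 hosts, had 22 and 7 in the dark and 21 and 6 after light. RNA processing and binding, 39 hosts, had 15 and 14 in the dark and 8 and 6 after light, beside the 74.2% and 74.6% over all long introns. Enzymes of metabolism made up 17.3% of hosts, beside 18.4% of tested genes with an intron over 250 bp. The shares were 7.86% beside 6.57% for kinases and phosphatases, 4.27% beside 6.20% for transport, 10.4% beside 8.29% for transcription and chromatin, and 6.67% beside 4.34% for RNA processing and binding, and no test of these shares was made. Another 257 hosts (43.9%) had other or no informative names.

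Among 45 genes of light signalling, 4 held 5 long introns. FHY1 carries phytochrome A into the nucleus, and its first intron was at 11%, 11.6% and 15.1% in sfps-2 red light against 7.31%, 6.94% and 8.89% in WT red light, and at 13.2%, 15.2% and 13.2% in sfps-2 dark against 7.59%, 8.52% and 8.61% in WT dark. All sfps-2 libraries were above all WT libraries of the same condition. TZP, a zinc knuckle protein that acts with phytochromes in growth control, had its 5′ UTR intron at 51.7%, 46.8% and 44.5% in sfps-2 red light and 33.2%, 34.2% and 34.4% in WT red light, and at 63.6%, 50% and 60% in sfps-2 dark and 57.1%, 47.8% and 20.8% in WT dark. The groups overlapped in the dark, where TZP was at 2.82 FPKM in sfps-2 and 3.29 FPKM in WT. RRC1, a splicing regulator that works with SFPS, had 2 introns less retained in sfps-2, I010 at 3.05% ± 1.18 in sfps-2 dark and 6.89% ± 2.80 in WT dark with overlapping groups, and I014 at 8.12% ± 0.982 in sfps-2 red light and 14.7% ± 2.04 in WT red light, and RRC1 was called higher in sfps-2 (log2 change 0.81 in the dark and 0.69 after light). The B-box gene BBX25 had 14.6%, 14.4% and 13.1% in sfps-2 red light and 14.8%, 16.7% and 14.5% in WT red light, but its dark libraries held too few reads for a share (0%, 100% and 33.3% in sfps-2, and 20%, 12.5% and 50% in WT).

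Of 23 clock genes, 4 held 6 long introns, all more retained in sfps-2 where listed for genotype. TOC1, an evening-phased pseudo-response regulator, had its first intron at 16.6%, 14.6% and 20% in sfps-2 red light against 9.64%, 7.88% and 10.3% in WT red light, and at 17.9%, 17.4% and 20.3% in sfps-2 dark against 11.3%, 11.2% and 11.6% in WT dark. PRR7:I004 averaged 32.3% ± 4.74 in sfps-2 red light and 18.2% ± 3.24 in WT red light. ELF3:I001 averaged 9.70% ± 0.804 in sfps-2 red light and 4.19% ± 0.158 in WT red light, and 8.04% ± 0.724 in sfps-2 dark and 3.98% ± 0.550 in WT dark. RVE8 activates evening genes, and its 3′ UTR intron I009 averaged 16% ± 2.74 in sfps-2 red light and 9.04% ± 2.69 in WT red light, and 18.5% ± 1.55 in sfps-2 dark and 13.7% ± 2.03 in WT dark. RVE8 expression was called lower in sfps-2 in both conditions (log2 change -0.81 after light and -0.68 in the dark).

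Of 46 splicing factor genes, 7 held 1 long intron each, SFPS and SR34B among them. For comparison, 581 of 21160 genes tested for expression in a table (2.75%) held a long listed intron. That base includes genes without an annotated intron over 250 bp, as only 11186 tested genes have one. The gene lists were chosen with earlier results of these data known, and no test of the shares was made. GRP7, a clock-regulated glycine-rich RNA-binding protein known to act on its own pre-mRNA, had its intron at 22.3%, 25.1% and 23.0% in sfps-2 red light against 16%, 18.6% and 18.0% in WT red light, and at 25.1%, 26.5% and 23.4% in sfps-2 dark against 18.7%, 19.7% and 19.9% in WT dark. AFC3, a LAMMER kinase that phosphorylates splicing factors, had an intron at 12.4% ± 1.29 in sfps-2 dark and 22.4% ± 2.55 in WT dark. For light, SCL30A:I003 averaged 15% ± 2.29 after red light and 32.1% ± 5.16 in the dark in sfps-2, and 17.4% ± 0.793 and 25.4% ± 1.93 in WT, while its expression rose (log2 change 0.66 in sfps-2 and 0.61 in WT). The U2AF65B intron I004, in a gene for the large subunit of U2AF that binds the 3′ splice site region, averaged 51.5% ± 5.90 after light and 68.8% ± 3.83 in the dark in WT, and RS2Z32:I006 averaged 40.9% ± 1.83 and 44.8% ± 0.560.

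Host gene expression, which did not enter the choice of introns, was read from the authors' deposited tables as FPKM per group, with a gene called at q under 0.05 and a fold of at least 1.5. Of 198 tested hosts of introns more retained in dark sfps-2, 8 were called higher and 16 lower in sfps-2, beside 5.22% higher and 1.99% lower among all genes tested. After red light, 6 of 204 were higher and 7 lower, beside 3.28% and 3.23%. Hosts of introns less retained in sfps-2 had 5 higher and 2 lower of 71 in the dark, and 5 and 0 of 69 after light. FLC, the floral repressor, was among the hosts with lower expression, at 20.3 FPKM in sfps-2 dark and 59.9 FPKM in WT dark (log2 change -1.56, q 0.00116). Its 3493 bp first intron was at 8.53%, 5.06% and 8.92% in sfps-2 dark against 1.38%, 4.67% and 3.81% in WT dark, and another gene overlaps it.

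Among hosts of introns less retained after light, the share called higher in expression lay above that of all genes tested. In sfps-2, 28 of 62 such hosts rose (45.2%, beside 12.4% of all genes tested) and 6 fell (beside 8.97%), and in WT 46 of 102 rose (45.1%, beside 14.9%) and 9 fell (beside 5.85%). Hosts of introns more retained after light had 5 higher (14.3%) and 3 lower (8.57%) of 35 in sfps-2. In WT they had 20 higher (29.0%) and 8 lower (11.6%) of 69, and both of these shares also lay above those of all genes tested. Listing needs junction reads in both groups, so listed hosts are not a random draw of genes, and no test was made of these shares. CDSP32, a thioredoxin of the chloroplast, rose by 5.99 on the log2 scale in WT while its intron averaged 2.81% after light and 8.45% in the dark. RPT2, a phototropism signalling gene, rose by 3.58 in sfps-2, where its intron I001 was at 5.66%, 5.55% and 4.60% after light against 7.14%, 8.48% and 9.48% in the dark.

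The pattern was not uniform among hosts. In GA2OX6, a gibberellin-inactivating enzyme, expression fell by 1.58 on the log2 scale in sfps-2 and by 0.75 in WT, and its 1355 bp intron I001 averaged 11.5% ± 1.79 after light and 25.2% ± 3.63 in the dark in sfps-2, and 10.4% ± 2.37 and 18.8% ± 1.22 in WT. XTH7, a xyloglucan-modifying wall enzyme, rose by 3.01 in sfps-2 and 3.17 in WT, and its intron was more retained after light, at 5.46% after light and 1.93% in the dark in sfps-2, and at 5.79% and 2.22% in WT.

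**Figure D5:**
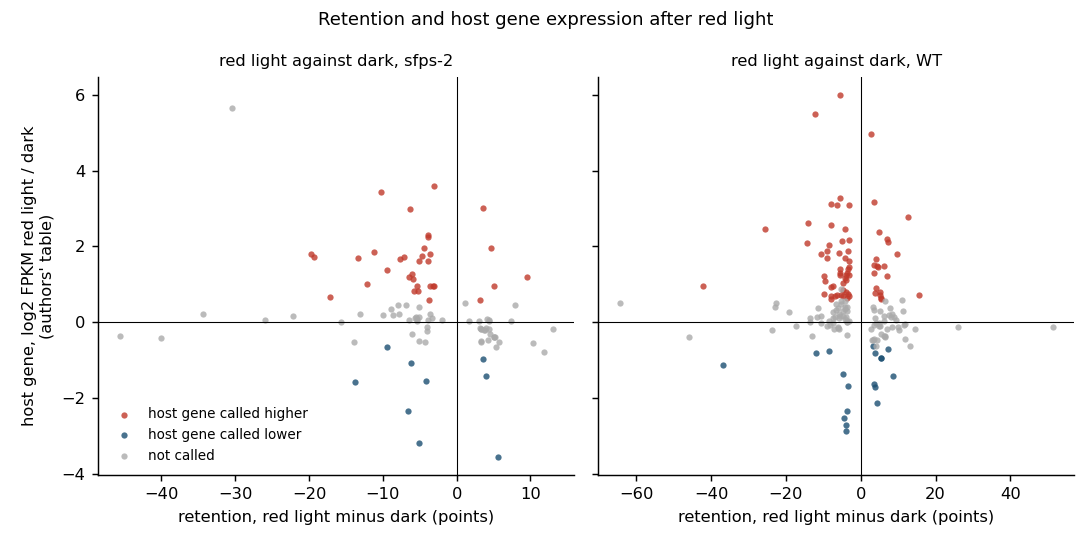
Expression change of the host gene after red light (vertical axis, log2 of FPKM in red light over dark, authors' tables) against the difference in retention (horizontal axis, percentage points, red light minus dark) for the long introns listed for light in sfps-2 and in WT, 1 point per intron. In both panels, more points with lower retention than with higher retention lie among hosts called higher. They are 28 of 62 tested hosts against 5 of 35 in sfps-2, and 46 of 102 against 20 of 69 in WT.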

How the data were processed

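RNA-seq of 12 libraries (3 per group) was used. Per the series' design text, libraries were stranded total RNA after ribosomal RNA removal, reads were mapped with TopHat, expression was estimated with Cufflinks and splicing with ASpli. The submitters' processing notes name FastQC, TopHat2, Cufflinks and TAIR10. Versions, and whether counting used strand, are not given in the sources used here.

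The authors deposited junction read counts per bin and library, retained shares per group as a fraction, an FDR (adjusted p-value) per bin, and FPKM per group with q-values. Their lists hold bins with FDR under 0.05 and a change of at least 3 points, as the names of the deposited sheets state and their values show. Total depth per library is unknown, and low junction counts limit the precision of each share.

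From these, retention per library was computed as above. The members and gene lists were chosen with earlier results of these data known. Named introns were those of SFPS, up to 5 per direction and comparison by difference with at least 20 weighted junction reads in every library, those listed in 3 or 4 comparisons, those in the gene lists, the 3 longest, the bins nearest the length limit, the smallest p-values of the genotype by light test, hosts with several introns, and called hosts by fold. ADR1-L1:I006 and AT5G16990:I003, named because few introns shared their feature, were chosen after their values were seen. The genotype by light test used edgeR's quasi-likelihood fit on unspliced and spliced reads with a term per library, checked on simulated data. Annotated introns and sequences came from RefSeq TAIR10.1. Alternatives changed the boundary used, the read minimum, the length limit, the threshold in points, the expression call and the test (DESeq2, limma), and left out each library. Software was Python 3.11.15, numpy 2.4.6, pandas 2.3.3, matplotlib 3.10.9, R 4.3.3, edgeR 4.0.16, limma 3.58.1 and DESeq2 1.42.0.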

Additional observations from a re-analysis of the deposited data

How the results depend on the processing

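Shares rest on junction reads, which are few in lowly expressed hosts. With a threshold of 10 points in place of 3, 54 long introns were more and 30 less retained in sfps-2 in the dark, and 48 and 29 after red light. At 3 points these counts were 204 and 71, and 211 and 72. For light, 3 were more and 17 less retained in sfps-2, and 12 and 22 in WT, at 10 points. Over all listed intron bins, the counts at 10 points were 133 and 110 for genotype in the dark and 147 and 92 after red light. For light they were 54 and 97 in sfps-2, and 98 and 110 in WT. The median difference over all listed long introns was 5.43 points for genotype in the dark and 4.81 after red light. For light it was -3.67 in WT and -4.07 in sfps-2. With the lower-coordinate boundary alone the median difference was 4.42 points for genotype in the dark, 4.37 after red light and -2.70 for light in WT. With the upper-coordinate boundary alone it was 4.38, 3.90 and -2.51, and -3.41 for light in sfps-2. A q under 0.05 alone called 57 hosts for genotype in the dark and 32 after red light, in place of 30 and 18.

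Leaving out each library in turn gave 203 to 205 more and 70 to 72 less retained in sfps-2 in the dark, 210 to 212 and 71 to 73 after red light, 33 to 37 and 65 to 69 for light in sfps-2, and 72 to 75 and 105 to 108 in WT. The medians ranged from 5.195 to 5.57, from 4.58 to 5.10, from -4.42 to -3.80 and from -3.76 to -3.19 points. The genotype by light test passed 0 bins each time, with 19 to 26 at an unadjusted p under 0.05 and a smallest adjusted p of 0.0649 to 0.573 in edgeR.

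Deviations of same-numbered libraries from their group means correlated at -0.36 to 0.27 over all 432 bins. They correlated at -0.02 to 0.10 over the 430 left without the 2 that list 0 spliced reads in single libraries. Counting noise enters each deviation, so these values cannot settle whether same-numbered libraries were grown or prepared together. With the replicate number as a block, the test of genotype by light also passed 0 (18 unadjusted, smallest adjusted p 0.063 in edgeR). Within numbers, all 3 differences were higher for 180 and lower for 63 of 276 listed long introns in the dark. After red light the counts were 189 and 65 of 283. For light they were 28 and 58 of 102 in sfps-2, and 56 and 95 of 180 in WT. The introns were listed for these same differences, and the count was not made over the shorter listed bins.

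Many single values depended on the boundary used, taking each named intron in each comparison that listed it. With the lower-coordinate boundary alone, 6 values reversed in direction, 69 others moved by at least the SD between libraries and 98 stayed within it. With the upper-coordinate boundary alone, the counts were 5, 68 and 97. The reversals are given here. For genotype in the dark, AT3G46668 gave -1.498 (upper boundary) and HEI10 -0.758 (lower boundary). For genotype after red light, AT1G06560 gave -11.1 and AT3G06690 1.09 (lower boundary), and PTR3 -9.33 (upper boundary). For light in WT, Lhca5 gave -2.04, AT3G46668 -1.56 and AT1G58602 -16.7 (upper boundary), and AT5G38210 -3.26, AT2G17975 -1.45 and BBX25 8.46 (lower boundary).

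Others reversed without 1 library. The genotype difference of PTR3 after red light ranged from -0.656, without WT red light replicate 3, to 10.8 points. For light in WT, AT2G17975 ranged from -1.72, without WT dark replicate 2, to 7.68 points, and AT1G58602:I002 from -2.81, without WT dark replicate 1, to 12.3 points. For light in sfps-2, AT1G06560 ranged from -10.3 to 4.99 points, with 4.99 without sfps-2 red light replicate 2 and 0.165 without sfps-2 dark replicate 2. GME ranged from -0.529, without sfps-2 dark replicate 3, to 13.4 points, and MYB10 from -2.21, without sfps-2 red light replicate 3, to 9.64 points. The cause of these reversals was not tested.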
